A study of Mus musculus with 10 samples.

Results

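The genes described here were 9 components of the Hedgehog signalling pathway, chosen by name: Shh, Ptch1, Smo, Boc, Gas1, Hhip, Gli1, Gli2 and Gli3. All 9 were listed in both expression tables, which hold 16292 genes for ameloblasts and 16638 for the stratum intermedium. The tables came from RNA-seq of mouse dental epithelium, in which ameloblasts secrete the enamel matrix and the stratum intermedium is the layer of cells behind them. Each layer was cut separately by laser from frozen mandible slides of wild-type (WT) mice and of mice knocked out (KO) for claudin-10, a tight junction protein that forms ion channels between cells, and each layer had 2 WT and 3 KO libraries. Library names carried the prefixes WT10, WT5, KO1, KO3 and KO9 in both layers. The prefixes were read as animals, although the labels do not say so, and if they are not separate animals the p-values measure the spread between libraries alone. The labels state neither strain nor age, nor which exons of Cldn10 the knockout removes.

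In the Hedgehog pathway, a secreted ligand such as Shh binds the receptor Ptch1 and so frees Smo, a membrane protein that Ptch1 otherwise holds inactive. Active Smo acts through the primary cilium to stop the transcription factors Gli2 and Gli3 from being cut into repressors, and target genes are then transcribed. Ptch1, Hhip and Gli1 are themselves such targets, so their transcripts are widely used as readouts of the pathway, and the products of Ptch1 and Hhip bind the ligand and dampen the signal. In the developing tooth Shh is made by the dental epithelium, and epithelium and neighbouring mesenchyme both respond to it.

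The targeted gene was checked first. Cldn10 was listed at 600 and 752 normalized counts in WT ameloblasts and at 280, 408 and 149 in KO ameloblasts of prefixes KO1, KO3 and KO9. Stratum intermedium libraries had 7257 and 2365 in WT and 1003, 387 and 465 in KO, so each KO library lay below each WT library of its layer. The log2 KO minus WT difference was -1.38 (SE 0.46, limma adjusted p = 0.989) in ameloblasts and -2.87 (SE 0.56, adjusted p = 1) in the stratum intermedium. The values are DESeq2-normalized counts summed over each gene, between 22135034 and 26856177 per ameloblast library and between 21006977 and 24053340 per stratum intermedium library, and the sequencing depth behind them is unknown. Genes at 0 were most numerous in the WT10 libraries, 706 and 854. Transcripts of the Y-linked gene Ddx3y were at 0 in both libraries of KO1 and of KO3, with Xist at 5791 or more there, so WT10, WT5 and KO9 were male and KO1 and KO3 female. Ameloblast markers (8 genes led by Amelx) made up 2.22% to 9.17% of the summed values in ameloblast libraries and 0.129% to 0.950% in stratum intermedium libraries. Stratum intermedium and papillary layer markers (8 genes, of which Cldn10 is 1) made up 0.108% to 0.215% and 0.165% to 0.483%, and they were the higher in stratum intermedium for 4 of the 5 prefixes but not for KO3. Because the captured samples are bulk RNA, fewer cells of a type and less RNA per cell cannot be told apart.

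No Hedgehog gene passed the test between genotypes in either layer, a test that recovered 27% of simulated log2 changes of 2. With limma on log2(normalized count + 1), 0 of the 9 had an adjusted p under 0.05 in ameloblasts, in the stratum intermedium or in the difference between layers, against 0.0% of all genes tested in each. At an unadjusted p under 0.05, 1 of the 9 (Ptch1) was higher in KO ameloblasts, where 3.07% of 16212 genes had such a p, and 0 of the 9 in the stratum intermedium, where 2.06% of 16543 genes did. For the KO minus WT difference between layers, 2 of the 9 (Shh and Ptch1) had an unadjusted p under 0.05, against 5.15% of 15567 genes. With the variance trend taken over the mean difference, limma's default, 0 of the 9 did, against 4.8% of all genes. By direction, 6 of the 9 had a positive KO minus WT value and 3 a negative one in ameloblasts, with a median of 0.08 beside 0.04 over all genes. Stratum intermedium values were positive for 4 and negative for 5, with a median of -0.04 beside 0.02.

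**Figure D1:**
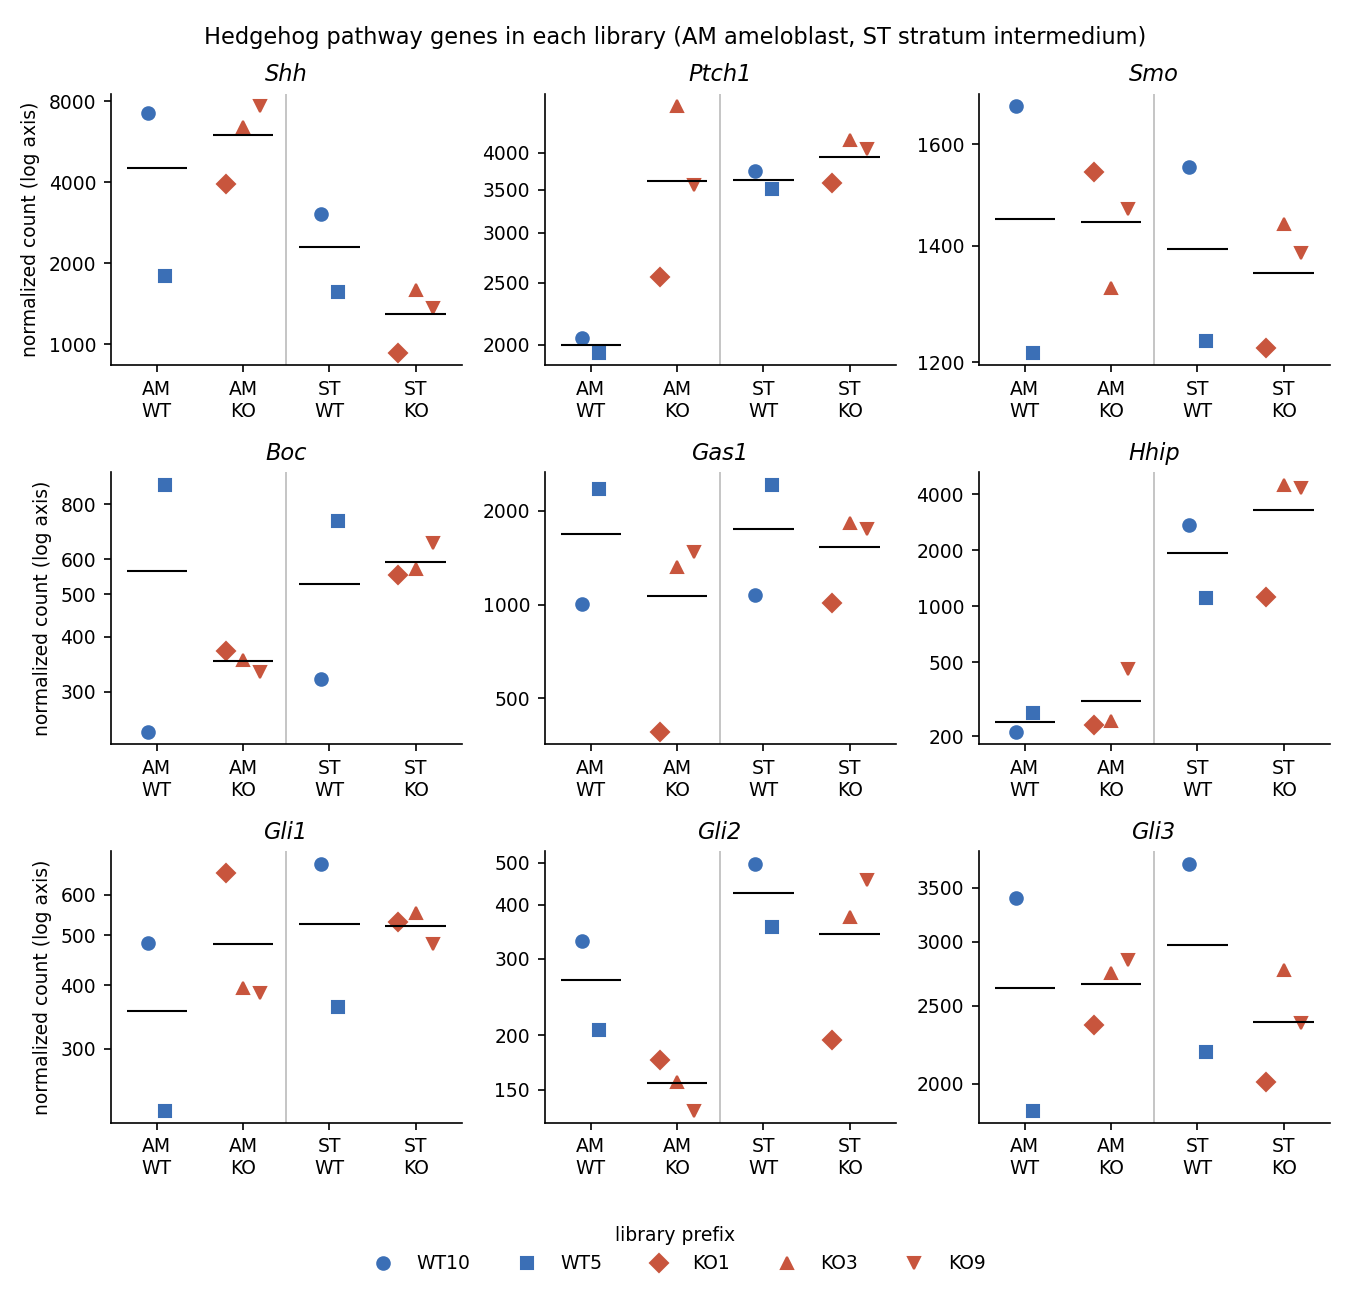
Normalized count (log axis, its range set for each panel) of each Hedgehog gene in the WT (blue) and KO (red) libraries of ameloblasts (AM) and stratum intermedium (ST); each symbol is 1 library, its shape is the library prefix, and the line is the mean of 2 WT or 3 KO libraries. The 3 KO ameloblast values of Ptch1, from 2557 to 4743, lie above both WT values, Hhip is between 212 and 461 in ameloblasts and at 1111 or more in the stratum intermedium, and the WT5 ameloblast library is the lowest of its table for Shh, Ptch1, Smo, Gli1 and Gli3.

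Shh, the ligand, lies on chromosome 5 of GRCm38 from 28456815 to 28467256 on the minus strand (ENSMUSG00000002633). In ameloblasts it was listed at 7239 and 1798 normalized counts in WT10 and WT5, and at 3928, 6439 and 7696 in KO1, KO3 and KO9. The KO values lay between and just above the WT values, the groups overlapped, and WT5 was the lowest of the 5 libraries. In the stratum intermedium Shh was at 3058 and 1563 in WT and at 931, 1587 and 1362 in KO. There WT10 stood highest, KO1 lowest, and WT5 beside KO3, so the groups overlapped by that 1 library. The log2 KO minus WT difference was 0.68 (SE 0.58, limma adjusted p = 0.989) in ameloblasts and -0.79 (SE 0.35, adjusted p = 1) in the stratum intermedium. The ameloblast value rests on which WT library is kept: it was 1.69 without WT10 and -0.32 without WT5. The stratum intermedium value was -0.31 without WT10 and -1.28 without WT5.

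Shh was the Hedgehog gene with the clearest split between layers on the ameloblast side. Within each prefix its ameloblast minus stratum intermedium log2 value was 1.24 in WT10 and 0.20 in WT5, and 2.08, 2.02 and 2.5 in KO1, KO3 and KO9. It was thus higher in ameloblasts in 5 of 5 prefixes, by a median of 4.06-fold and by 1.15-fold to 5.65-fold, and only 0.95% of 15567 genes had a larger median. Because the tables of the layers were normalized separately, such values are descriptions and were not tested; the median gene stood at -0.11 to -0.17 on this scale. The 3 KO prefixes all lay above both WT prefixes. The mean split was 0.72 in WT and 2.20 in KO, a difference of 1.47 (SE 0.34, limma adjusted p = 0.836), in which a constant factor between the tables cancels. Its 2-sided exact permutation p was 0.1, the smallest possible (adjusted p = 0.675 over 27 such tests). The value was 0.95 without WT5 (adjusted p = 0.289) and 2.00 without WT10 (adjusted p = 0.24), and the SE was 0.65 with the variance trend taken over the mean difference (adjusted p = 0.864). Within library group 1, a number in the library names that the labels leave unexplained, the split was 0.20 in WT5 and 2.02 in KO3, and within group 2 it was 1.24 in WT10 and 2.5 in KO9. The male KO prefix, KO9, had the largest split of the 5, and with sex as a covariate the difference was 1.77 (SE 0.48, adjusted p = 0.954).

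Ptch1, the receptor and a target of the pathway, lies on chromosome 13 from 63508328 to 63573598 on the minus strand (ENSMUSG00000021466). It stood at 2048 and 1942 normalized counts in the WT ameloblast libraries and at 2557, 4743 and 3559 in KO1, KO3 and KO9. All 3 KO libraries were above both WT libraries, with means of 1995 ± 74.5 (SD, n = 2) and 3620 ± 1094 (SD, n = 3). Among all genes in ameloblasts, 9.09% had every KO library above every WT library and 9.26% had every KO library below, and of the 9 Hedgehog genes 1 (Ptch1) was in the first class and 1 (Gli2) in the other. The log2 difference was 0.81 (SE 0.30, limma adjusted p = 0.989). By a 2-sided exact permutation test over the 10 arrangements of 2 and 3 libraries its p was 0.2, where 0.1 is the smallest p the design allows (adjusted p = 0.675 over 27 such tests). The difference was 0.60 without KO3 and 1.04 without KO1. With library group as a block it was 1.04 by construction, since library group 3 holds KO1 alone. With sex as a covariate it was 0.84 (SE 0.44). The summed stratum intermedium and papillary layer markers, led by Krt17, were also the higher in each KO ameloblast library. They made up 0.147% to 0.215% of the summed values against 0.108% and 0.115% in WT. Of the genes in that list, only Krt17 and Dsc3 had every KO library above both WT libraries. Cldn10 was lower in every KO library, and Alpl, Notch1, Notch2, Jag2 and Sfn overlapped. The part of these markers in the Ptch1 difference was not tested.

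Ptch1 in the stratum intermedium varied by less than any other Hedgehog gene there, at 3746 and 3508 in WT and 3593, 4186 and 4058 in KO. The groups overlapped, the highest library was 1.19 times the lowest, and the log2 difference was 0.12 (SE 0.18, adjusted p = 1). In that layer 7.76% of all genes had every KO library above every WT library and 7.44% had every KO library below, and 0 of the 9 Hedgehog genes were in either class. The WT ameloblast values of Ptch1 were below the stratum intermedium values of the same prefix by 0.87 and 0.85 on the log2 scale. In KO the ameloblast minus stratum intermedium values were -0.49, 0.18 and -0.19, all above those of WT. The difference between layers was 0.70 (SE 0.25, limma adjusted p = 0.836).

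Smo, the signal transducer that Ptch1 holds inactive, lies on chromosome 6 from 29735503 to 29761365 on the plus strand (ENSMUSG00000001761). It was listed at 1684 and 1215 in WT ameloblasts and at 1542, 1324 and 1468 in KO ameloblasts, the KO values falling between the WT values. Its stratum intermedium values were 1554 and 1235 in WT and 1223, 1440 and 1387 in KO, which also overlapped. The log2 differences were 0.01 (SE 0.25) and -0.04 (SE 0.22), with limma adjusted p-values of 0.999 and 1. Across all libraries of a layer the highest Smo value was 1.39 times the lowest in ameloblasts and 1.27 times in the stratum intermedium.

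Boc and Gas1 encode co-receptors that hold Shh at the cell surface together with Ptch1. Boc lies on chromosome 16 from 44485049 to 44558897 and Gas1, whose exon spans its whole locus, on chromosome 13 from 60174405 to 60177365, both on the minus strand. Boc was at 243 and 885 in WT ameloblasts and at 372, 354 and 332 in KO ameloblasts. The KO libraries lay close together between WT10, the lowest, and WT5, the highest. Boc in the stratum intermedium was at 321 and 734 in WT and at 552, 569 and 654 in KO, again with all KO values between WT10 and WT5. Its log2 differences were -0.40 (SE 0.54) and 0.28 (SE 0.39), with limma adjusted p-values of 0.989 and 1.

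Gas1 stood at 1006 and 2353 in WT ameloblasts and at 391, 1319 and 1479 in KO ameloblasts. WT5 was the highest and KO1 the lowest, 6.01-fold apart, the widest range of the 9 genes in ameloblasts, and the groups overlapped. Its stratum intermedium values were 1074 and 2421 in WT and 1009, 1828 and 1745 in KO, with the same libraries at the extremes. The log2 differences were -0.75 (SE 0.64, limma adjusted p = 0.989) and -0.13 (SE 0.41, adjusted p = 1). The ameloblast value was -0.14 without KO1 or without WT5 and -1.36 without WT10. A related co-receptor gene, Cdon, was listed in ameloblasts at 83.6 and 234 in WT and 191, 138 and 81.8 in KO, with a log2 difference of -0.11 (SE 0.62, adjusted p = 0.996). Its stratum intermedium values were 333 and 277 in WT and 163, 377 and 284 in KO (log2 -0.23, SE 0.44).

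Hhip encodes a membrane-anchored and secreted protein that binds Hedgehog ligands and keeps them from Ptch1. Its locus is on chromosome 8 from 79965851 to 80058006 on the minus strand (ENSMUSG00000064325). Ameloblast libraries held little of it, 212 and 268 in WT and 230, 241 and 461 in KO, with KO9 the highest. Stratum intermedium libraries held 2735 and 1111 in WT and 1126, 4496 and 4295 in KO. In that layer KO3 and KO9 were above both WT libraries and KO1 was beside WT5, so the groups overlapped. The log2 KO minus WT differences were 0.30 (SE 0.43, limma adjusted p = 0.989) in ameloblasts and 0.68 (SE 0.65, adjusted p = 1) in the stratum intermedium. The stratum intermedium value was 0.029 without WT5 and 1.33 without WT10 or without KO1. With library group as a block, which sets KO1 apart, it was the same 1.33 as without KO1 (SE 0.34, adjusted p = 1).

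The split of Hhip between layers was wider than that of the other 8 Hedgehog genes. Its ameloblast minus stratum intermedium log2 value was -3.68 in WT10, -2.05 in WT5, -2.29 in KO1, -4.22 in KO3 and -3.22 in KO9. Hhip was therefore lower in ameloblasts in 5 of 5 prefixes, by a median of 9.30-fold and a range of 4.14-fold to 18.6-fold, and its median lay at percentile 0.12 of 15567 genes. The genotypes overlapped in this split (KO minus WT -0.38, SE 0.67, limma adjusted p = 0.931). Among all genes, 11.1% were above the median gene toward ameloblasts in all 5 prefixes and 9.96% below it in all 5. Of the Hedgehog genes, Shh and Smo were in the first class and Gli2 and Hhip in the other, although the Smo split was small, from -0.12 to 0.33. Marker shares of fibroblasts, endothelium, skeletal muscle, nerve and cycling cells were also lower in ameloblast libraries in 5 of 5 prefixes. Those of ameloblasts and epithelium, and the odontoblast gene Dspp, were higher in 5 of 5. The part of these cell types in the splits of Shh and Hhip was not tested.

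**Figure D2:**
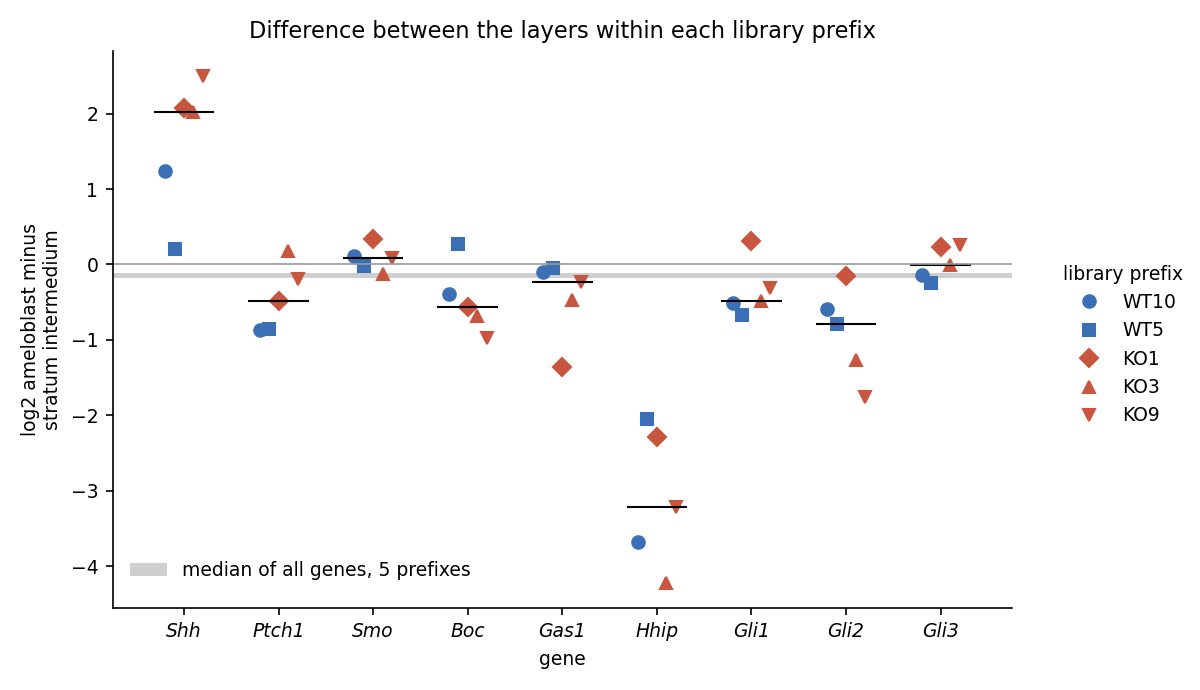
Ameloblast minus stratum intermedium log2(normalized count + 1) of each Hedgehog gene within each library prefix (WT blue, KO red); the black line is the median of the 5 prefixes and the grey band the medians of all genes. Shh lies above 0 in all 5 prefixes and Hhip at -2.05 or below in all 5, and the KO prefixes of Shh and Ptch1 lie above their WT prefixes.

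Ptch1 and Hhip encode the ligand-binding dampers of the pathway and had unlike layer patterns, so the 250 bases before the RefSeq start site of each are shown (GRCm38.p6, minus strand, 5′ to 3′, chr13:63565736-63565985 for Ptch1 and chr8:80058009-80058258 for Hhip). The start used for Ptch1 is inside the annotated gene, which extends further upstream. Capitals mark GC boxes, the letters GGGCGG or, on the other strand, CCGCCC, which the zinc-finger factor Sp1 is known to bind.
Ptch1: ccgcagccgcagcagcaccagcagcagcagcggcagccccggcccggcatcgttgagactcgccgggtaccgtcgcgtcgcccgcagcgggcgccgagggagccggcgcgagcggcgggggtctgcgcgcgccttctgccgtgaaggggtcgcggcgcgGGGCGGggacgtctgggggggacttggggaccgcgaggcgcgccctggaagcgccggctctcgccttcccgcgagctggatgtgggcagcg
Hhip: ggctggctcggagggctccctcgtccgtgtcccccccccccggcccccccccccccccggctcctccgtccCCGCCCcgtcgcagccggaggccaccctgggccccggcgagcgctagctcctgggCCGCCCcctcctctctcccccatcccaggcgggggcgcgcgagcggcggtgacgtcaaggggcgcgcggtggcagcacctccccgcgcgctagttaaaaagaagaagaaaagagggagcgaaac
The table of promoters held 6 of the 9 genes (Ptch1, Hhip, Gas1, Smo, Gli2 and Gli3). A GC box was found in 5 of those 6, with 1 in Ptch1, 2 in Hhip and none in Smo, against 32.7% of 32851 promoters. The consensus Gli site GACCACCCA, read on both strands (TGGGTGGTC), was in 0 of the 6 and in 0.225% of all promoters, and TATAAA was in 0 of the 6 and in 12.4% of all. The absence of a match says only that these letters are not in the window, and GC boxes were present in the windows of both Ptch1 and Hhip. The Ptch1 window was 78.4% G or C and the Hhip window 76%.

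Gli1 is the transcription factor that is itself switched on by the pathway, and it lies on chromosome 10 from 127329882 to 127341974 on the minus strand (ENSMUSG00000025407). In ameloblasts it was at 484 and 227 in WT and at 661, 394 and 386 in KO. KO1 was the highest and WT5 the lowest, and the groups overlapped through WT10. Gli1 in the stratum intermedium was at 691 and 362 in WT and at 531, 552 and 481 in KO, all between the WT values. Its log2 differences were 0.49 (SE 0.44, limma adjusted p = 0.989) and 0.06 (SE 0.34, adjusted p = 1). In 4 of 5 prefixes Gli1 was lower in ameloblasts, with splits of -0.51 and -0.67 in WT and 0.32, -0.48 and -0.32 in KO.

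Gli2, the main activator among the Gli factors, lies on chromosome 1 from 118834132 to 119053619 on the minus strand (ENSMUSG00000048402). It stood at 330 and 205 in WT ameloblasts and at 176, 156 and 134 in KO ameloblasts. All 3 KO libraries were below both WT libraries, with means of 268 ± 88.2 (SD, n = 2) and 155 ± 20.7 (SD, n = 3), and the log2 difference was -0.75 (SE 0.40, limma adjusted p = 0.989). Stratum intermedium values of 497 and 356 in WT and 195, 375 and 456 in KO overlapped (log2 -0.38, SE 0.44, adjusted p = 1). Gli2 was lower in ameloblasts in 5 of 5 prefixes, with splits of -0.59 and -0.79 in WT and -0.15, -1.26 and -1.75 in KO.

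Gli3, which acts mainly as a repressor when no ligand is present, lies on chromosome 13 from 15463235 to 15730026 on the plus strand (ENSMUSG00000021318). Ameloblast values were 3398 and 1854 in WT and 2368, 2748 and 2851 in KO, all KO values between the WT values. Stratum intermedium values were 3748 and 2190 in WT and 2012, 2767 and 2381 in KO, with WT10 the highest and the groups overlapping. The log2 differences were 0.08 (SE 0.30, limma adjusted p = 0.993) and -0.28 (SE 0.28, adjusted p = 1).

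When the split between layers was compared between genotypes, 4 of the 9 genes (Shh, Ptch1, Gli1 and Gli3) had all KO prefixes above both WT prefixes, where 10.9% of all genes did, and 2 (Boc and Gas1) had all KO prefixes below, where 11.5% did. The Gli3 split was -0.14 and -0.24 in WT and 0.24, -0.01 and 0.26 in KO, a difference of 0.35 (SE 0.22, limma adjusted p = 0.836). That of Boc was -0.40 and 0.27 in WT and -0.57, -0.68 and -0.98 in KO, a difference of -0.68 (SE 0.38, adjusted p = 0.836). The Gas1 split was -0.09 and -0.04 in WT and -1.36, -0.47 and -0.24 in KO, a difference of -0.62 (SE 0.37, adjusted p = 0.836). These genes share the same prefixes, so they are not separate observations. Over the 10 libraries, centred by table, Shh had a Pearson correlation of 0.92 with Gli3, -0.86 with Boc and -0.185 with Gas1. In the values as listed, the ligand, Ptch1, Gli1 and Gli3 stood relatively higher on the ameloblast side in KO. Boc and Gas1 stood relatively lower, though the splits of the related Cdon overlapped between genotypes, and none of these differences passed the adjusted threshold. Of 11 marker lists, 3 also had a lower ameloblast to stratum intermedium ratio in all KO prefixes than in both WT prefixes, and 0 a higher one. The ratio was 0.585 to 0.634 in KO against 0.658 and 0.873 in WT10 and WT5 for fibroblast and dental follicle markers, and 0.427 to 0.753 against 1.84 and 0.824 for osteoclast markers. For red blood cell markers it was 0.505 to 0.559 against 1.67 and 1.40. The genotypes overlapped for ameloblast markers, at 8.16 to 17.2 in KO against 9.38 in WT10 and 2.81 in WT5. That ratio was lowest in WT5 and highest in KO9, as was the Shh split. These are ratios of summed shares, and no gene of the fibroblast list taken alone had all KO ratios below both WT ratios. The part of these cell types in the splits of the Hedgehog genes was not tested.

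**Figure D3:**
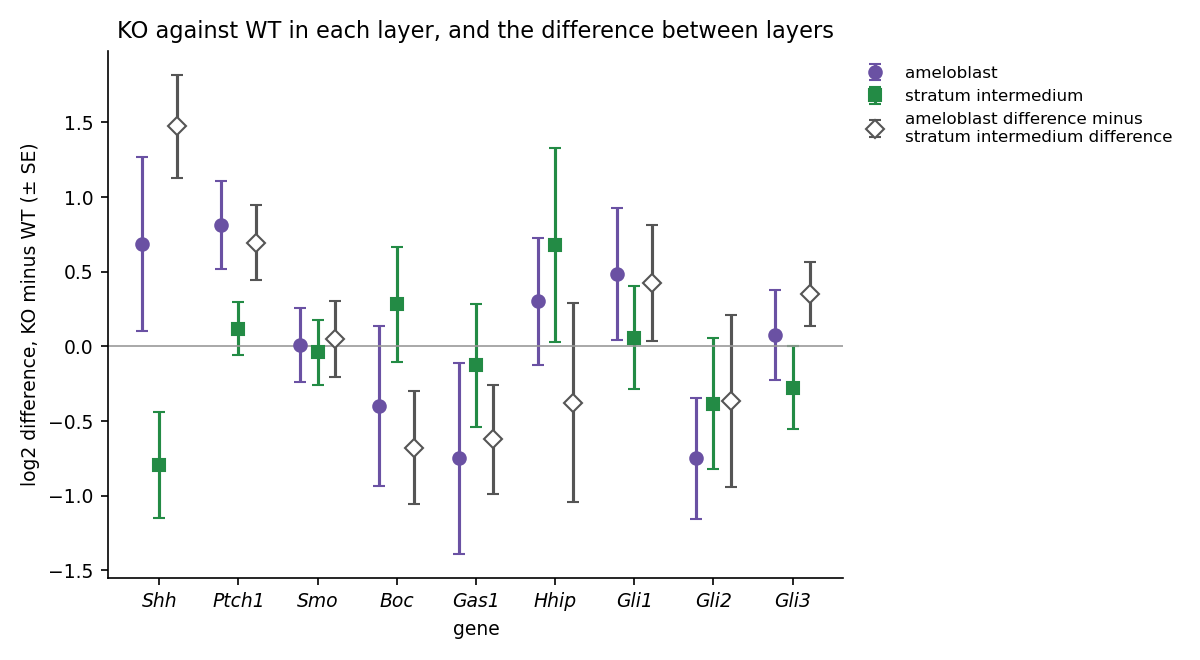
Log2 KO minus WT difference of each Hedgehog gene in ameloblasts (purple circles) and the stratum intermedium (green squares), and the ameloblast difference minus that of the stratum intermedium (open diamonds), with bars of 1 SE from limma over 2 WT and 3 KO libraries or prefixes. Ptch1 in ameloblasts is at 0.81, Shh has values of opposite sign in the layers, 0.68 and -0.79, and its difference between layers is 1.47.

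Levels were compared between genes only per kilobase of annotated exon. The length was the union of all annotated exons of a gene, 2.85 kb for Shh and 14.19 kb for Ptch1. It can exceed the transcript made, so levels of different genes are not transcript ratios. In ameloblasts Shh had the highest mean, 1904 normalized counts per kb (632 to 2703 over 5 libraries), followed by Gas1 at 442, Gli3 at 276, Smo at 257 and Ptch1 at 209. Boc at 98.2, Gli1 at 86.2, Hhip at 31.1 and Gli2 at 29.2 came last. Every neighbouring pair in that order had overlapping ranges over the libraries. In the stratum intermedium Shh at 597 and Gas1 at 545 again led, and Hhip was next at 303 (122 to 495). Gli3 at 273, Ptch1 at 269 and Smo at 243 followed, and the ranges of these neighbours overlapped. The Smo range was apart from that of Boc, at 127, and the Gli1 range, with a mean of 105, was apart from that of Gli2, at 54.7.

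**Figure D4:**
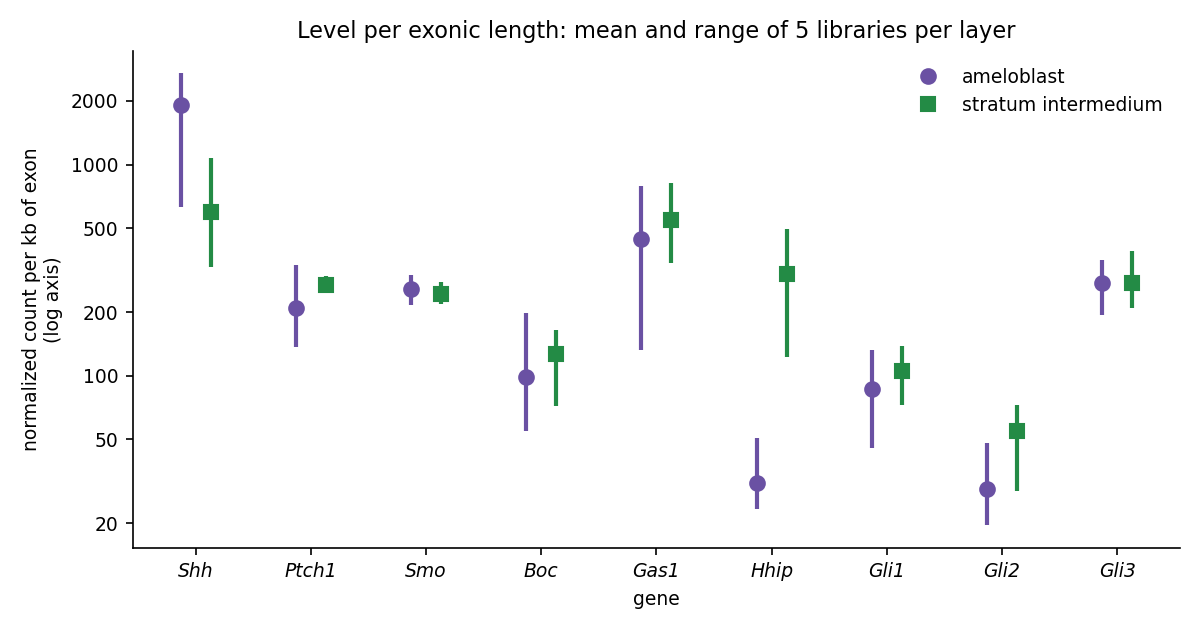
Normalized count per kilobase of annotated exon (log axis) of each Hedgehog gene in ameloblasts (purple circles) and the stratum intermedium (green squares); points are means and lines run from the lowest to the highest of 5 libraries. Hhip goes from a mean of 31.1 in ameloblasts to 303 in the stratum intermedium, while Smo has means of 257 and 243 and Gli3 of 276 and 273.

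Ratios between genes of the same library do not depend on how the tables were scaled, but their size depends on the exon lengths used. The Hhip level per kb was 0.0794 to 0.215 of the Ptch1 level in ameloblasts and 0.490 to 1.68 of it in the stratum intermedium, and the layers did not overlap. The Shh level per kb was 4.61 to 17.6 times that of Ptch1 in ameloblasts and 1.29 to 4.07 times in the stratum intermedium, again without overlap. Ptch1 over Smo was 0.482 and 0.633 in WT ameloblasts and 0.657, 1.42 and 0.960 in KO ameloblasts, against 0.956 to 1.16 over all stratum intermedium libraries. By this ratio too, the WT ameloblast libraries were the lowest of the 10, although KO1, at 0.657, was close to WT5.

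Marker shares differed between libraries, and their order is given beside that of the Hedgehog genes. Epithelial markers (6 genes led by Krt14) made up 0.653% of the WT10 and 0.154% of the WT5 ameloblast library, and 0.374% to 0.435% of the KO ameloblast libraries. WT5, the lowest in these markers, was also the lowest ameloblast library for Shh, Ptch1, Gli1, Gli3 and Smo. WT10, the highest in these markers, was the highest for Gli2, Gli3 and Smo but not for Shh, which was highest in KO9, or for Gli1, which was highest in KO1. Ptch1 was at 1942 in WT5 and 2048 in WT10, and it was highest in KO3. The epithelial list of the stratum intermedium libraries was 0.345% in WT10, 0.274% in KO1, 0.165% in KO3, 0.123% in KO9 and 0.112% in WT5. WT10 was there the highest library for Shh, Gli1, Gli2, Gli3 and Smo. KO1, next in epithelial markers, was the lowest for Shh, Gli2, Gli3 and Smo. WT5, the lowest in these markers, was the lowest for Gli1, and also for Ptch1 and Hhip.

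Odontoblast and pulp markers (7 genes led by Col1a1) made up 3.30% of WT10, 4.49% of WT5 and 2.63% to 3.80% of the KO ameloblast libraries, and Boc and Gas1 were highest in WT5. Most of that share was Col1a1 and Col1a2, which were highest in WT5, at 507180 and 422060 normalized counts. Dspp, the gene that defines odontoblasts, was lowest in WT5, at 37271 against 63175 to 126440 in the other ameloblast libraries, and Dmp1, another odontoblast gene, was also lowest there, at 20053. The list made up 1.82% of WT10, 4.78% of WT5 and 2.73% to 3.06% of the KO stratum intermedium libraries, where Boc, Gas1, Dspp and Dmp1 were all highest in WT5. Fibroblast and dental follicle markers (8 genes) and osteoclast markers (6 genes) were also highest in the WT5 ameloblast library, at 0.640% and 0.739%. Red blood cell markers (5 genes) made up 0.244% and 1.28% of the WT and 0.0814% to 0.144% of the KO ameloblast libraries. All genes of these 5 marker lists were listed, and none was at 0 in a library. The part of tissue content in the differences between genotypes was not tested.

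**Figure D5:**
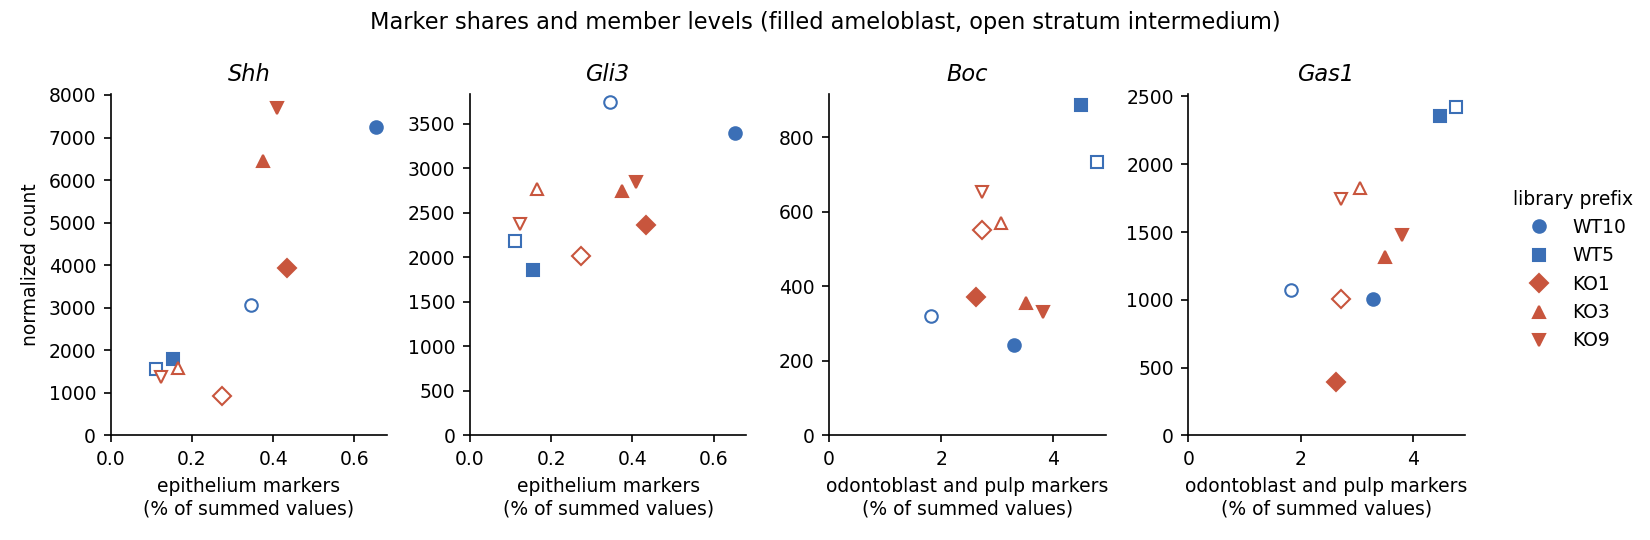
Normalized counts of Shh and Gli3 against the share of epithelial markers, and of Boc and Gas1 against the share of odontoblast and pulp markers (percent of the summed values of the library); each symbol is 1 library, filled for ameloblasts and open for the stratum intermedium, with its shape giving the prefix. The WT5 ameloblast library has 0.154% epithelial markers and the lowest Shh and Gli3 of its layer, and both WT5 libraries have the highest summed odontoblast and pulp share, most of it Col1a1 and Col1a2, and the most Boc and Gas1 of their layers.

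Over the 10 libraries, with each table centred on its own mean, Shh and Gli3 had a Pearson correlation of 0.92 and Gli3 and Smo of 0.84, while Gli1 and Gas1 were at -0.90, Gli3 and Boc at -0.88 and Shh and Boc at -0.86. These values are descriptions without a test, since the 10 libraries share 5 prefixes and their tissue content. Among 12812 genes, the nearest in pattern to Shh were Fryl (r = 0.954), Yae1d1, Snn, Plekha8 and Taf9b. Those nearest to Ptch1 were C030034I22Rik (r = 0.91), Cpt2, Stt3b, Nt5e and Rhbdd1, and those nearest to Gli1 were Galt (r = 0.962), Rab4b, Kif26a, Farsa and Glo1.

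The rest of the pathway was read from lists of 36 further genes, of which 32 were tested in ameloblasts and 33 in the stratum intermedium. None passed the adjusted threshold in either layer. In ameloblasts 20 had a positive and 12 a negative KO minus WT value, with a median of 0.14, and in the stratum intermedium 17 were positive and 16 negative, with a median of 0.00. At an unadjusted p under 0.05 there was 1 of the 32 in ameloblasts, near the 3.07% of all genes, and 0 of the 33 in the stratum intermedium. It was Kif3a, which encodes a motor subunit needed to build the cilium. Kif3a was listed at 823 and 809 in WT ameloblasts and at 1522, 1073 and 1278 in KO ameloblasts (log2 0.65, SE 0.25, limma adjusted p = 0.989), all KO values above WT. Kif3a in the stratum intermedium was at 951 and 1034 in WT and 2297, 1308 and 1115 in KO, also without overlap (log2 0.59, SE 0.33, adjusted p = 1). Each layer taken alone, 9.09% of all genes had this pattern in ameloblasts and 7.76% in the stratum intermedium. Dyrk2, which encodes a protein kinase that acts on Gli2 and Gli3, had all KO values below both WT values in each layer, as 9.26% and 7.44% of all genes did. It was at 1078 and 1387 in WT and 797, 996 and 1021 in KO ameloblasts (log2 -0.39, SE 0.26, adjusted p = 0.989), and at 1077 and 1331 in WT and 661, 943 and 1054 in KO stratum intermedium (log2 -0.46, SE 0.28, adjusted p = 1). The share of all genes with such a pattern in both layers at once was not counted, and the layers share their prefixes. Kif3a and Dyrk2 were named for being among the smallest p of their list. Of the ligands, Ihh was listed in the stratum intermedium alone, at 3.72 to 35.3 normalized counts, and Dhh in neither table.

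Of 9 further genes known as Hedgehog targets in some tissues, 4 were positive and 5 negative in ameloblasts and 3 positive and 6 negative in the stratum intermedium. Ccnd1, which encodes the cell-cycle protein cyclin D1 and also responds to other pathways, was at 647 and 1419 in WT ameloblasts and at 1860, 1506 and 1829 in KO ameloblasts. All KO values were above both WT values, as for 9.09% of all genes (log2 0.85, SE 0.36, limma adjusted p = 0.989). Ccnd1 in the stratum intermedium was at 1747 and 2368 in WT and 2288, 2200 and 1196 in KO, and the groups overlapped. The Ccnd1 difference between layers was 1.01 (SE 0.40, adjusted p = 0.836). Bcl2, which encodes an inhibitor of cell death, was at 403 and 536 in WT ameloblasts and at 283, 334 and 377 in KO ameloblasts, all KO values below WT, as for 9.26% of all genes (log2 -0.50, SE 0.32, adjusted p = 0.989). Its stratum intermedium values, 387 and 665 in WT and 489, 671 and 647 in KO, overlapped.

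Some Hedgehog genes share annotated exon bases with genes on the opposite strand, and the sources used here do not state whether reads were counted by strand. Gli1 shares 62 bases with Arhgap9 and Gli3 shares 188 with Gm6556, both of which are listed in both tables. Hhip shares 175 of its 9076 exonic bases with Gm27820, which is listed in the stratum intermedium alone. Whether reads of either gene were counted for the other was not tested. Shh and Gas1 overlap only transcripts that are in neither table.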

How the data were processed

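RNA-seq was measured in 10 libraries of laser-captured ameloblasts and stratum intermedium. Per the labels, polyA libraries were made with a stranded TruSeq kit. The signal values were deposited as normalized counts per gene, 1 table per layer, named by the authors as DESeq2 matrices with outliers left out. The sources used here do not say which samples those were. Per the submitters' processing notes, reads were handled on GRCm38 with tools that include featureCounts, DESeq, Picard 2.8.1, FastQC and STAR 2.5.2b, with no settings or order. Every gene listed had at least 10 normalized counts in at least 3 libraries of its table, as found in the values, so genes below that floor were not seen. Whole reads could not be recovered from the values, so no count test was run and no counting intervals are given.

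Columns were matched to samples by library name, with 0 columns unused. Each table was fitted on log2(normalized count + 1) by limma 3.58.1 (R 4.3.3), 2-sided and with a variance trend, once genes with a mean below 10 had been dropped, with Benjamini-Hochberg adjustment over all genes tested and a threshold of 0.05. Log2 differences are KO minus WT with limma's SE, on the log2(value + 1) scale, which understates the change of low genes. The difference between layers was fitted on each prefix's ameloblast minus stratum intermedium value. Its variance trend was taken over a gene's mean level, a choice made after the default trend, over the mean difference, gave Hhip an SE of 3.23 and called none of the changed genes in simulated data. The limma fits were tested on simulated data with known changes. At a log2 change of 2, 27% of changed genes were recovered in each layer. At a log2 change of 4 it was 52% in ameloblasts, 56% in the stratum intermedium and 54.5% for the difference between layers. A gene that did not pass may therefore still differ between genotypes. Single values were also tested by exact permutation over the 10 arrangements of 2 WT and 3 KO libraries, in 27 tests.

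Positions and exon lengths came from GENCODE M21 of GRCm38 and promoters from RefSeq. Besides the 9 genes and Cldn10, up to 4 genes per pathway list with the smallest p in a comparison were eligible to be named. So were the 5 genes most like Shh, Ptch1 and Gli1. Cdon, Dhh and the markers Dspp and Krt14 were named for their role, and other markers to show which genes carried the sum of a list. The Hedgehog genes, lists and tests were chosen with earlier results of these data known. Alternatives were a pseudocount of 0.5 or 8, a minimum mean of 50 or none, quantile normalization, rescaling without the 20 most abundant genes, library weights (statmod 1.5.0), sex as a covariate, a block for library group or for replicate number, and omission of each library or prefix in turn. Figures used matplotlib 3.10.9.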

Additional observations from a re-analysis of the deposited data

How the results depend on the processing

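Over the 9 Hedgehog genes and 3 comparisons, 405 alternative values were computed. In these, 0 crossed the adjusted threshold, the smallest adjusted p being 0.24, and 32 changed sign. Sign changes came with quantile normalization, library weights, sex as a covariate, library group as a block or the omission of a library. Library group 3 holds KO1 alone and replicate 3 is in KO alone. Either block therefore repeats the estimate obtained without that library and is not a separate check of it. In ameloblasts Smo was -0.038 with quantile normalization, -0.063 with library weights and -0.037 with library group as a block. In the stratum intermedium Smo was 0.0026 and Gas1 0.027 with library weights, Smo 0.029 and Gas1 0.15 with library group as a block, and, with sex as a covariate, Gli1 was -0.054, Gli2 0.12, Smo 0.002 and Gas1 0.11. Between layers Smo was -0.038 with library weights and -0.066 with library group as a block. The cause was not tested.

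For genes whose sign changed, leaving out 1 library at a time gave ranges in ameloblasts of -0.32 to 1.69 for Shh, -0.057 to 1.03 for Gli1, -0.36 to 0.51 for Gli3, -0.22 to 0.25 for Smo, -0.020 to 0.48 for Hhip and -1.33 to 0.53 for Boc. In the stratum intermedium the ranges were -0.41 to 0.52 for Gli1, -0.66 to 0.11 for Gli3, -0.21 to 0.13 for Smo, -0.32 to 0.88 for Boc and -0.71 to 0.46 for Gas1. Between layers they were -0.066 to 0.16 for Smo and -1.19 to 0.44 for Hhip. Ranges without a sign change included -1.36 to -0.14 for Gas1 and -1.09 to -0.41 for Gli2 in ameloblasts, 0.029 to 1.33 for Hhip, -1.28 to -0.31 for Shh and -0.63 to -0.024 for Gli2 in the stratum intermedium, and -0.82 to -0.018 for Gli2, 0.19 to 0.59 for Gli1, -1.01 to -0.35 for Boc and -0.85 to -0.29 for Gas1 between layers. Of all genes, 0 to 1 passed the adjusted threshold in ameloblasts and 0 to 1 between layers. That 1 gene was Tcap, a muscle gene named after its values were seen, without WT replicate 2 in ameloblasts and without prefix WT5 between layers. Without 1 WT library the remaining WT library was assumed to vary like the KO libraries. Genes with an unadjusted p under 0.05 then numbered 1312 without WT10 and 1490 without WT5 in ameloblasts, against 498, and 497 and 1714 in the stratum intermedium, against 340.

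Replicate numbers are shared between WT and KO but do not name the same prefix in both layers. KO replicate 1 was KO1 in ameloblasts and KO3 in the stratum intermedium. Deviations from the group means of same-numbered libraries correlated at 0.13 and -0.15 in ameloblasts and at -0.28 and -0.15 in the stratum intermedium. Those of the same library group correlated at 0.37 and 0.28 for WT5 with KO3 and at 0.15 and 0.067 for WT10 with KO9, in ameloblasts and stratum intermedium. With 2 WT libraries, the WT deviations are mirror images, so a positive value with WT10 forces a negative value with WT5, and the reverse. These correlations therefore cannot decide whether samples were paired. With a replicate block 0 genes passed in either layer, Ptch1 in ameloblasts was 0.60 (limma adjusted p = 0.999) and Shh in the stratum intermedium was -0.85 (adjusted p = 1). Replicate 3 is in KO alone, so these 2 estimates are the same as without KO replicate 3. With the block, genes at an unadjusted p under 0.05 numbered 354 against 498 in ameloblasts and 185 against 340 in the stratum intermedium.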
